A study of Mus musculus with 6 samples.

Results

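Skeletal muscle fibre genes encode the contractile filaments, the Z-disc, the calcium store and the energy and oxygen buffers of striated muscle fibres. They were examined here as 34 named genes of the 23518 gene symbols in a table of RNA sequencing coverage from mouse ear skin. The members are the genes whose symbol is on a given list of fast and slow sarcomere, calcium handling and energy genes. All 34 were present and all 34 were among the 15049 genes with enough coverage to be tested.

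Ear skin was sampled in 3 HdR samples and 3 wild-type (WT) samples on day 1 after topical treatment with 10 mg of a cream holding 5% imiquimod, a Toll-like receptor agonist that induces psoriasis-like inflammation. The design text names the mutant HOIL1 ΔRING1, that is, HOIL1 that lacks RING1, and HdR is its label on the samples. HOIL1, the product of Rbck1, is a subunit of the linear ubiquitin chain assembly complex. Every sample was treated, so HdR and WT skin differ in genotype and share the imiquimod. The sources used here do not give strain, sex, age, the cells in which the allele acts or the part of the ear taken. The labels do not say that the 3 samples of a genotype came from separate mice, so p-values measure the spread between these samples.

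Striated muscle contracts when myosin thick filaments pull on actin thin filaments. Calcium released from the sarcoplasmic reticulum binds troponin and lets the heads of myosin reach actin. Fast and slow fibres build the same machine from different isoforms, and most filament proteins have a fast gene and a slow gene. In the mouse ear, striated fibres belong to the auricular muscles that move the pinna, and the fibres are not part of the epidermis or dermis proper. The list holds 14 genes of fast fibre isoforms, 7 of slow isoforms and 13 that both fibre types use.

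Coverage is given in bases per Mb of aligned sequence after scaling of the libraries, and a change is the HdR mean minus the WT mean of log2(value + 1). The added 1 shrinks the change of genes with low values. The 6 libraries held 4433.0 to 5966.4 Mb. Rbck1 had 23.9, 13.0 and 19.7 bases per Mb in HdR replicates 1 to 3, against 66.6, 55.1 and 64.1 in WT replicates 1 to 3 (log2 change -1.70, limma adjusted p = 0.00438), in the direction of the labels. A sum over the whole gene does not show the deleted exons. An adjusted p under 0.05 was the threshold for a call. Of all genes tested, 30.6% were called, with 12.7% higher and 17.9% lower in HdR skin, and higher calls were 41.3% of all calls. Scaling to total bases instead gave 17.6%, and quantile scaling 53.1%, with the median of all genes moved by -0.29 and 0.11 on the log2 scale. Under these scalings and the median of ratios, 9 to 11 members were higher and 0 lower. Across all genes the change was lower for longer transcripts. The median log2 change was 0.56 over the 2002 genes with a longest transcript of up to 1500 nt, and -0.50 over the 3204 genes of 5000 nt or more. HdR replicate 2 and WT replicate 2 stood apart from the other libraries of their genotype for many of the muscle genes below, so values without them are given where they matter.

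Skeletal fibre genes were present in every library, beside markers of other muscle. The members took 0.835%, 0.818% and 0.847% of all bases in HdR replicates 1 to 3, against 0.756%, 0.466% and 0.795% in WT replicates 1 to 3. Each of the 34 genes had coverage in every library. Of 7 heart markers, Myh6, Nppa and Myl7 stayed below 1 base per Mb in all libraries, Ryr2 reached 1.78 in HdR replicate 2, and Nppb, Tnni3 and Tnnt2 passed the filter on low values. The 7 together summed to 33.0, 76.7 and 37.2 in HdR replicates 1 to 3, against 20.3, 15.7 and 23.4 in WT replicates 1 to 3, most of it Nppb and Tnnt2. Smooth muscle markers were present. Of 10, Cnn1 and Actg2 stayed below 1 in all libraries and 7 passed the filter, with Tagln highest at 34.4 to 40.4 in HdR and 37.1 to 41.0 in WT, and the 10 summed to 83.3, 89.8 and 84.5 in HdR, against 129, 103 and 128 in WT. The part of these cells in the members' values was not tested. Myod1 and Myog, regulators of muscle differentiation, reached at most 0.915 and 0.620, and Pax7, a marker of muscle stem cells, at most 0.470. In bulk skin, more muscle fibres in the tissue and more RNA per fibre cannot be told apart.

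A sequence feature that the choice of genes did not use was more frequent in the promoters of the members than in all promoters, though many members lacked it. RefSeq windows (GRCm38.p6, 250 bases before to 50 after the start) were found for 28 of the 34 genes, in 35 windows. The hexamer CAGCTG, a form of the E-box CANNTG that the myogenic factors of the MyoD family bind, was searched for. It reads the same on both strands. It occurred in 18 of the 35 windows (51.4%), against 16.3% of all 32851 windows, and by gene in 15 of 28 members (53.6%), against 18.3% of 27025 genes. The broader E-box CANNTG, which includes it, was in 82.9% of the member windows and 72.3% of all windows. Another E-box form, CACCTG, was in 25.7% of the member windows, near the 20.2% of all windows. Also searched were TATAAA (20%, against 13.6% of all) and CATTCC (31.4%, against 14.7%). The A/T-rich motif of the MEF2 factors was in 4 member windows (11.4%, against 3.19% of all), those of Ttn, Myh1, Myh4 and Pvalb. The CArG box of serum response factor was in 5 (14.3%, against 1.63%). These are matches of letters and do not show binding.

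Of the windows with CAGCTG, 5 are shown, from 3 genes that were higher in HdR skin (Mylpf, Ckm and Tpm2) and from Acta1 and Myh4, whose values overlapped between the genotypes. The sequences run 5′ to 3′ on the gene's own strand. The windows are chr7:127211358-127211657 (plus strand) for Mylpf, chr7:19410844-19411143 (plus) for Ckm, chr4:43523505-43523804 (minus) for Tpm2, chr8:123894726-123895025 (minus) for Acta1 and chr11:67237562-67237861 (plus) for Myh4. Capitals mark CAGCTG, and in Myh4 also the MEF2 match.
Mylpf: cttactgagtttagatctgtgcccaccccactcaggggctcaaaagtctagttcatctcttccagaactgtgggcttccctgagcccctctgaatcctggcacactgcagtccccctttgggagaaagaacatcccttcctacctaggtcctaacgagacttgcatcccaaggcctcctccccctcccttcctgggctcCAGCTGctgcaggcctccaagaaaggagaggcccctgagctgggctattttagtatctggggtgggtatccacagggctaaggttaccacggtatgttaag
Ckm: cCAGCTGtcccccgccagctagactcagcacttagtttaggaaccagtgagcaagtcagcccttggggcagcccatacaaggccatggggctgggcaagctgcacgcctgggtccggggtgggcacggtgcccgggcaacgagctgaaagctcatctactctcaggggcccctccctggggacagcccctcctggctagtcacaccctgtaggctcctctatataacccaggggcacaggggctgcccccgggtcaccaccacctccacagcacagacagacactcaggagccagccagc
Tpm2: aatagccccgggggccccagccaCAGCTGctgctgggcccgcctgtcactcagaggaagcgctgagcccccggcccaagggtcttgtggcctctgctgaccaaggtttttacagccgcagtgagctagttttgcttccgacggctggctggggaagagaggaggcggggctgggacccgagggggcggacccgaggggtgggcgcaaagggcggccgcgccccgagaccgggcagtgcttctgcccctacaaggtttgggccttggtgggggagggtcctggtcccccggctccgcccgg
Acta1: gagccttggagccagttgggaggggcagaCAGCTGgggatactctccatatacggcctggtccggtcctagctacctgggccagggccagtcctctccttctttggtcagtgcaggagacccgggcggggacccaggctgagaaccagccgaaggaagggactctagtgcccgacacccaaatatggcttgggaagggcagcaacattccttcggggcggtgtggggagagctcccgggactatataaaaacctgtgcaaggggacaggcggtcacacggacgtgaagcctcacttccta
Myh4: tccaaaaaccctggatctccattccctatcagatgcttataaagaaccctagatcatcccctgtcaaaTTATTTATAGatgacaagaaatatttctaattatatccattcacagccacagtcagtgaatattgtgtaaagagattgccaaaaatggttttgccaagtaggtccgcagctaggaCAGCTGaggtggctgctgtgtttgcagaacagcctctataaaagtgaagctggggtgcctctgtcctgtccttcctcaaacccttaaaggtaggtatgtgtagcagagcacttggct
The CAGCTG begins 51 bases before the start in Mylpf, 67 in Myh4, 221 in Acta1, 227 in Tpm2 and 249 in Ckm. The hexamer thus occurs in genes that moved in HdR skin and in genes that were not called.

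Short muscle transcripts had higher coverage in HdR skin, and the 9 members of 5000 nt or more had negative changes. None of the 9 passed the test without the replicate number as a block, and 4 did with it. Of all 3204 genes of that length, 1183 were lower without the block and 1642 with it. The block is a pairing read from these same data, which the labels do not state. Of the 34 members, 10 were higher in HdR and 0 lower at a limma adjusted p under 0.05, against 12.7% and 17.9% of all genes tested. At an unadjusted limma p under 0.05, 3 of the 34 members were lower, Myh1, Myh4 and Neb, while 17.9% of all genes were lower even at the adjusted limit. The levels of the genotypes did not overlap in 13 members, all higher in HdR, against 20.9% of all genes higher and 30.7% lower. The median change of the members was 0.15, and that of all genes -0.13. The 10 called genes were Pvalb, Tnni2, Mylpf, Myl1, Myoz1, Tnnt3, Ckm, Tpm2, Mb and Tnnc2.

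**Figure D1:**
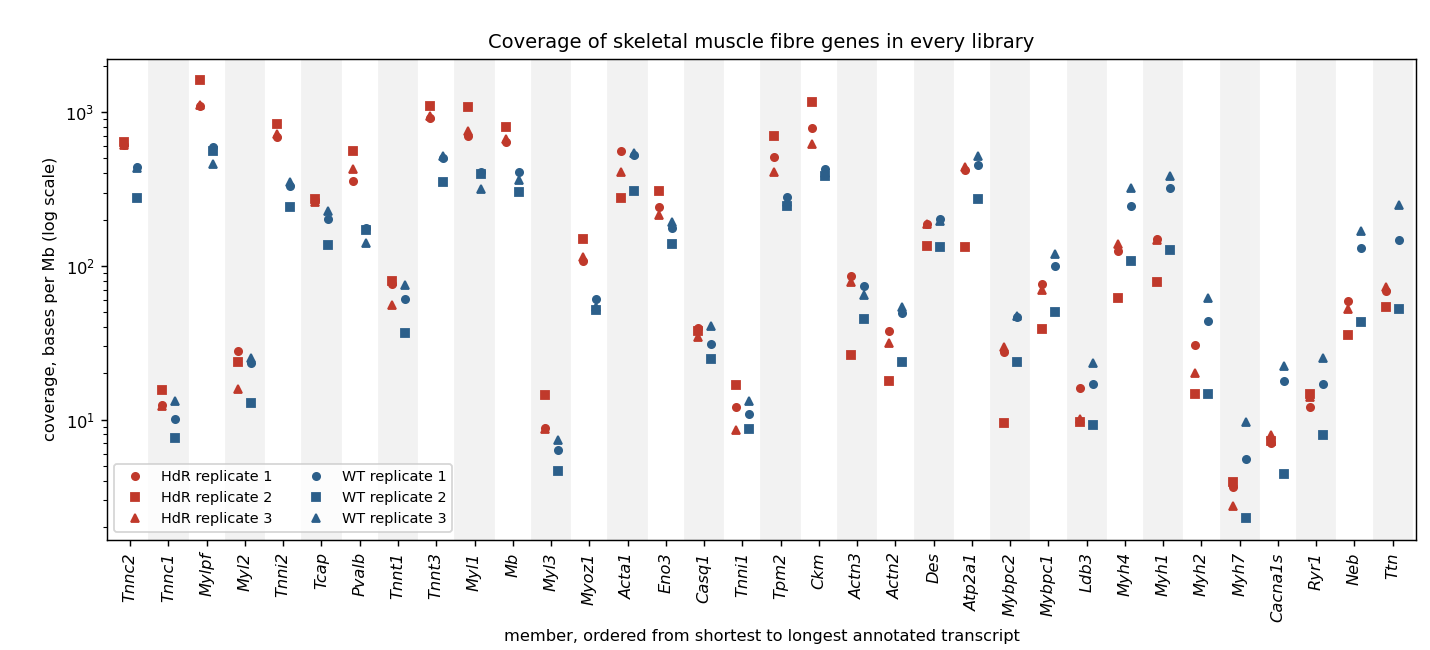
Normalised coverage of the 34 members in bases per Mb on a log axis, ordered by longest annotated transcript, with HdR libraries in red and WT libraries in blue and a marker shape for each replicate number. The short genes on the left, such as Mylpf at 1098 to 1610 in HdR and 461 to 594 in WT, separate by genotype, while among the 9 members of 5000 nt or more on the right WT replicate 2 is the lowest WT library and the genotypes overlap.

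On the thin filament, troponin I and troponin T of fast fibres separated the genotypes most clearly. Tnni2, the fast inhibitory subunit of troponin (ENSMUSG00000031097.15; chromosome 7, 142441808 to 142444410 of GRCm38, plus strand), had 687, 833 and 716 bases per Mb in HdR replicates 1 to 3, against 332, 242 and 353 in WT replicates 1 to 3. All HdR values lay above all WT values (log2 change 1.28, SE 0.20, limma adjusted p = 0.00800). Its slow counterpart Tnni1 had 12.0, 16.8 and 8.56 in HdR and 10.8, 8.72 and 13.3 in WT, and the genotypes overlapped (log2 change 0.14, limma adjusted p = 0.680).

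Tnnt3, the fast troponin subunit that anchors the complex to tropomyosin, had 914, 1096 and 938 in HdR, against 504, 353 and 515 in WT (log2 change 1.12, SE 0.21, limma adjusted p = 0.0124). Slow Tnnt1 had 76.2, 79.1 and 56.0 in HdR, against 60.5, 36.7 and 74.7 in WT, with WT replicates 1 and 3 inside the HdR range. The calcium-binding subunit of fast fibres, Tnnc2, had 613, 644 and 608 in HdR, against 441, 278 and 434 in WT (log2 change 0.72, SE 0.22, limma adjusted p = 0.0368). Tnnc1, its slow counterpart, had 12.5, 15.6 and 12.3 in HdR and 10.1, 7.63 and 13.2 in WT, which overlapped. Thus the fast member of each troponin pair was called, and no slow member was. The difference within a pair was not tested. For troponin C the changes were 0.72 and 0.38, and for troponin I the longest transcripts are 895 nt in Tnni2 and 2153 nt in Tnni1.

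Tpm2, the beta tropomyosin that lies along actin, had 507, 698 and 409 in HdR, against 282, 246 and 260 in WT (log2 change 1.00, SE 0.22, limma adjusted p = 0.0156). Acta1, the skeletal actin itself, had 560, 276 and 411 in HdR, against 527, 309 and 539 in WT, and the genotypes overlapped throughout (log2 change -0.16, SE 0.31, limma adjusted p = 0.714). Neb, the giant protein that runs the length of the thin filament (chromosome 2, 52136647 to 52378474, minus strand; longest transcript 22489 nt in 157 exons), had 59.1, 35.7 and 52.6 in HdR, against 130, 43.0 and 168 in WT. Only WT replicate 2 fell within the HdR range (log2 change -1.02, SE 0.44, limma adjusted p = 0.105, with the replicate block, limma adjusted p = 0.0125). Troponin, tropomyosin, actin and nebulin lie on the same filament, and their changes ran from -1.02 to 1.28.

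On the thick filament the fast light chains of myosin rose. Mylpf, the regulatory light chain of fast myosin (ENSMUSG00000030672.12; chromosome 7, 127208890 to 127214298, plus strand), had 1098, 1610 and 1117 in HdR, against 594, 558 and 461 in WT (log2 change 1.23, SE 0.22, limma adjusted p = 0.0110). Myl1, the essential light chain of fast myosin, had 703, 1087 and 758 in HdR, against 411, 398 and 316 in WT (log2 change 1.16, SE 0.22, limma adjusted p = 0.0127). The lowest HdR value was above the highest WT value for both.

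The fast heavy chains to which these light chains bind were not called without the replicate block, and with it Myh4 and Myh1 were lower. Myh4, the heavy chain of IIB fibres (ENSMUSG00000057003.12; chromosome 11, 67238029 to 67260446, plus strand), had 124, 61.5 and 139 in HdR, against 246, 107 and 321 in WT (log2 change -0.99, SE 0.42, limma adjusted p = 0.0990, with the replicate block, limma adjusted p = 0.00151). Myh1, the heavy chain of IIX fibres, had 150, 78.2 and 148 in HdR, against 320, 126 and 385 in WT (log2 change -1.05, SE 0.41, limma adjusted p = 0.0802, with the replicate block, limma adjusted p = 0.00224). In both, only WT replicate 2 lay inside the HdR range. Myh2, the heavy chain of IIA fibres, had 30.7, 14.6 and 20.0 in HdR, against 43.6, 14.7 and 62.2 in WT (log2 change -0.69).

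The shares of the heavy chains were close in the 2 genotypes and were not tested. Of the summed coverage of Myh1, Myh2, Myh4 and Myh7, whose transcripts have nearly the same length, Myh4 took 40.2%, 38.9% and 44.9% in HdR, against 40.0%, 42.8% and 41.2% in WT. Myh1 took 48.6%, 49.4% and 47.7% in HdR, against 52.0%, 50.4% and 49.5% in WT. The slow heavy chain Myh7 took 1.18%, 2.47% and 0.880% in HdR, against 0.900%, 0.925% and 1.23% in WT. Reads cannot always be told apart between these genes: of the 150-base stretches of the longest Myh1 transcript, 2.06% occur unchanged in Myh2 and 0.253% in Myh4, and of those of Myh7, 5.43% occur in the heart gene Myh6.

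The ratio of light chain to heavy chain within a library does not depend on the scaling of libraries. It sets short transcripts against long ones, so it includes the length trend of all genes. Their median change was 0.56 up to 1500 nt and -0.50 at 5000 nt or more. Mylpf had 8.87, 26.2 and 8.03 times the coverage of Myh4 in HdR replicates 1 to 3, against 2.42, 5.23 and 1.44 times in WT replicates 1 to 3. Myl1 had 4.70, 13.9 and 5.13 times the coverage of Myh1 in HdR, against 1.29, 3.17 and 0.820 in WT. Replicate 2 had the highest ratio in either genotype, and the genotypes did not overlap. Between the light chains the ratio of Mylpf to Myl1 was 1.56, 1.48 and 1.47 in HdR and 1.45, 1.40 and 1.46 in WT.

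The remaining thick filament members were not called without the block. Myl2 and Myl3, light chains of slow and cardiac muscle, had changes of 0.15 and 0.70. Myl3 was higher in every HdR library, at 8.83, 14.5 and 8.66 in HdR against 6.31, 4.63 and 7.36 in WT (limma adjusted p = 0.0583). Mybpc2 and Mybpc1, the fast and slow myosin binding proteins C that brace the thick filament, had changes of -0.87 and -0.50, and passed as lower with the block (limma adjusted p = 0.00405 and 0.0216). Mybpc2 had 27.4, 9.56 and 29.5 in HdR and 46.5, 23.6 and 47.0 in WT.

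At the Z-disc, where thin filaments are anchored, Myoz1 rose. It encodes calsarcin-2, which links alpha-actinin to calcineurin, and it had 108, 149 and 115 in HdR, against 61.3, 51.3 and 53.6 in WT (log2 change 1.14, SE 0.17, limma adjusted p = 0.00696). Tcap, the telethonin that caps titin, had 268, 273 and 262 in HdR, against 202, 137 and 229 in WT, without overlap but short of the threshold (log2 change 0.53, limma adjusted p = 0.0773, with the replicate block, limma adjusted p = 0.0366). The alpha-actinin genes Actn2 and Actn3, which crosslink actin, had changes of -0.52 and -0.09, and Actn2 passed as lower with the block (limma adjusted p = 0.0197). In Actn3, HdR replicate 2 stood at 26.2, against 86.0 and 78.9 in the other HdR libraries and 74.4, 45.4 and 64.7 in WT, and without that library the change of Actn3 was 0.44.

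Des, the intermediate filament protein desmin, which smooth muscle also makes, had 187, 134 and 187 in HdR, against 202, 133 and 196 in WT (log2 change -0.05). The level of Des in skeletal fibres alone was not tested. Ldb3, a PDZ protein that binds alpha-actinin, had a change of -0.39. Ttn, the titin spring from Z-disc to M-line and the longest member (chromosome 2, 76703980 to 76982547, minus strand; 106824 nt in 347 exons), had 69.1, 54.1 and 72.9 in HdR, against 148, 52.4 and 247 in WT (log2 change -0.93, SE 0.46, limma adjusted p = 0.144, with the replicate block, limma adjusted p = 0.0357). WT replicate 2 had the lowest Ttn value of all 6 libraries.

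Among the calcium handling genes the cytosolic buffer was called and the channels and the pump were not. Pvalb, the parvalbumin that binds calcium in fast fibres (ENSMUSG00000005716.16; chromosome 15, 78191114 to 78206400, minus strand), had 359, 557 and 424 in HdR, against 175, 170 and 141 in WT. This was the largest change among the members (log2 change 1.44, SE 0.20, limma adjusted p = 0.00566). Atp2a1, the fast calcium pump SERCA1, had 422, 133 and 442 in HdR, against 453, 271 and 520 in WT (log2 change -0.45). Casq1, the calcium store protein calsequestrin, had 39.4, 37.4 and 34.6 in HdR, against 31.0, 24.9 and 40.4 in WT (log2 change 0.23).

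The voltage sensor gene Cacna1s had 7.04, 7.30 and 7.89 in HdR, against 17.7, 4.41 and 22.3 in WT (log2 change -0.66). Its partner Ryr1, the calcium release channel, had 12.0, 14.6 and 14.1 in HdR, against 17.1, 7.97 and 25.3 in WT (log2 change -0.16). In both genes the HdR libraries lay close together, and the WT libraries lay on either side of them.

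Of the genes of energy and oxygen supply, Ckm and Mb rose and Eno3 was not called. Ckm, the muscle creatine kinase that regenerates ATP (ENSMUSG00000030399.2; chromosome 7, 19404776 to 19422841, plus strand), had 787, 1167 and 623 in HdR, against 426, 384 and 399 in WT (log2 change 1.04, SE 0.24, limma adjusted p = 0.0184). Mb, the oxygen-binding myoglobin, had 640, 804 and 670 in HdR, against 407, 303 and 363 in WT (log2 change 0.98, SE 0.19, limma adjusted p = 0.0131). Eno3, the muscle enolase of glycolysis, had 240, 309 and 213 in HdR, against 176, 138 and 193 in WT, without overlap (log2 change 0.58, limma adjusted p = 0.0555, with the replicate block, limma adjusted p = 0.0426).

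Short members had the higher changes and long members the lower ones. Across the 34 members the Spearman correlation of longest annotated transcript with log2 change was -0.81, and across the 14901 tested genes with a length it was -0.51. Genes are not independent replicates, and the members share the libraries, so these values are a description. Of the 14 members of up to 1500 nt, 8 rose and 0 fell (median 0.85), against 44.1% and 4.75% of all genes of that length (median 0.56). Of the 9 members of 5000 nt or more, 0 passed in either direction (median -0.69), against 2.31% higher and 36.9% lower among all genes of that length (median -0.50). The 3 giant genes Ttn, Neb and Ryr1, over 10000 nt, had a median change of -0.93, with 0 calls. All 343 genes over 10000 nt had a median of -0.64, with 2.04% higher and 44.6% lower.

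Within each library, the median log2 coverage of the short members exceeded that of the 3 giant genes by 2.90, 3.42 and 2.97 in HdR replicates 1 to 3, against 0.98, 2.21 and 0.68 in WT replicates 1 to 3. The genotypes did not overlap, and WT replicate 2 came closest to the HdR libraries. Summed over the members of 5000 nt or more, coverage was 471, 280 and 467 in HdR, against 945, 366 and 1263 in WT. Summed over the short members it was 6076, 7463 and 6112 in HdR, against 3756, 2861 and 3525 in WT.

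**Figure D2:**
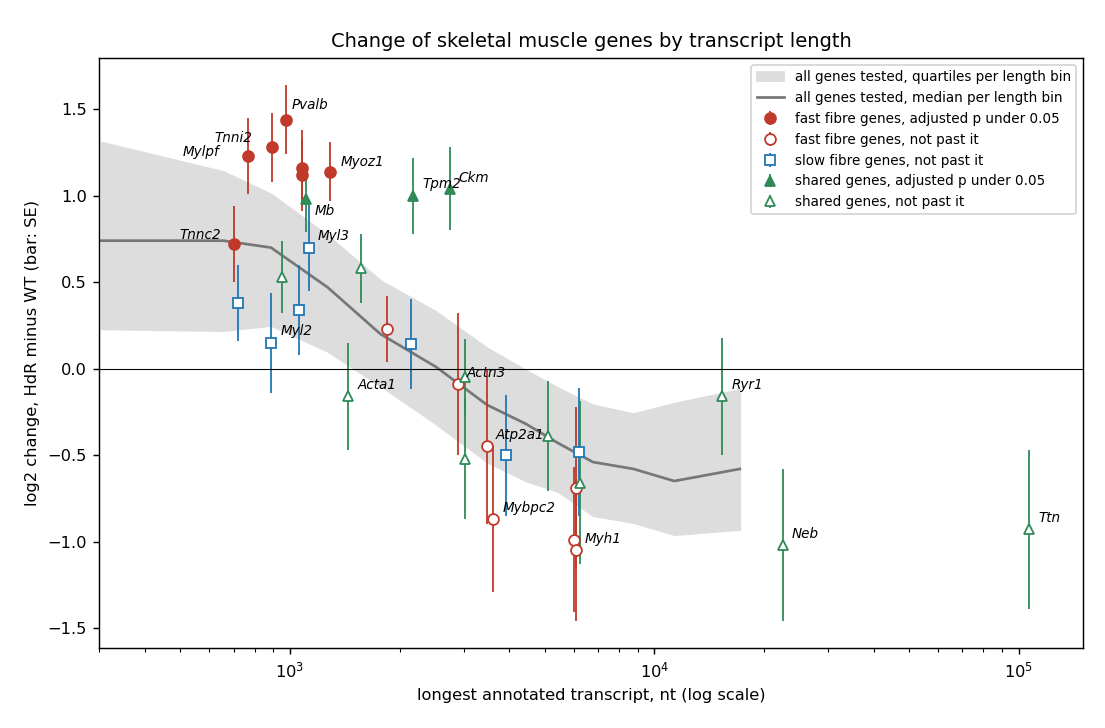
Log2 change of each member, HdR minus WT, with its SE, against the longest annotated transcript on a log axis, by fibre type, with filled markers for an adjusted p under 0.05 and a grey line and band for the median and quartiles of all genes tested. The 7 fast genes of up to 1500 nt are all called, at 0.72 to 1.44, Ckm and Tpm2 stand above the band of their length.

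When a smooth trend on transcript length was removed from each library, 6 members were still higher and 0 lower, against 10.9% and 8.48% of all genes. They were Ckm (log2 change 1.10, limma adjusted p = 0.0223), Pvalb (0.94, limma adjusted p = 0.0131), Tpm2 (0.90, limma adjusted p = 0.0230), Myoz1 (0.74, limma adjusted p = 0.0197), Myl1 (0.69, limma adjusted p = 0.0273) and Mylpf (0.65, limma adjusted p = 0.0304). Tnni2 (0.75, limma adjusted p = 0.0525), Tnnt3 (0.65, limma adjusted p = 0.0782) and Mb (0.52, limma adjusted p = 0.0921) missed the threshold and passed it when the replicate block was added (limma adjusted p = 0.0163, 0.0283 and 0.0445). Tnnc2 had a change of 0.12. The median of the members was then 0.01. Removal of the trend left a relation to length among the members. The Spearman correlation of length with the remaining change was -0.48 across the members, against -0.03 across all genes. It was -0.78 across the fast genes, -0.40 across the shared genes and 0.36 across the 7 slow genes. Without HdR replicate 2, in a fit chosen after seeing the data, 2 members were higher after this step, Pvalb and Ckm, and 0 lower. The share of all genes called in that fit was 5.50%, with 2.71% higher and 2.80% lower. The changes of the members no longer called were 0.70 for Tpm2, 0.69 for Myoz1, 0.60 for Myl1 and 0.60 for Mylpf. For some members the longest annotated transcript is not the one with the longest coding sequence, as in Tnni1 with 2153 and 1150 nt. Another alternative, chosen after seeing the data, used coding length, that of the longest coding sequence without untranslated parts (561 nt in Tnni1). With it 9 members were higher, among them Ckm (1.10), Tpm2 (0.87), Tnni2 (0.93) and Tnnt3 (0.96), and 0 lower, against 9.28% and 8.20% of all genes.

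Of the 8 called members of up to 1500 nt, 7 were fast genes and 1, Mb, is shared by the fibre types. All 7 fast genes of up to 1500 nt rose, with a median change of 1.16, while 0 of the 4 slow genes of that length did, with a median of 0.36. Of all genes of that length 44.1% were higher. The 7 longer fast genes had 0 calls and a median of -0.69, and the 3 longer slow genes 0 calls and a median of -0.48. Over all lengths, 7 of 14 fast genes rose (median 0.48), 0 of 7 slow genes (median 0.15) and 3 of 13 shared genes (median -0.16), against 12.7% of all genes. The median log2 coverage of the fast genes exceeded that of the slow genes by 4.10, 2.99 and 4.24 in HdR replicates 1 to 3, against 4.57, 3.92 and 4.48 in WT replicates 1 to 3. That gap, a level and not a change, was smaller in HdR in each same-numbered pair, and the genotypes overlapped. After removal of the length trend 4 fast genes and 0 slow genes were higher, though the change of the fast genes still correlated with length at -0.78. The difference between the fast and slow genes as groups was not tested.

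The ratio of a fast gene to its slow counterpart compares isoforms within a library. Tnni2 had 57.0, 49.5 and 83.7 times the coverage of Tnni1 in HdR replicates 1 to 3, against 30.7, 27.8 and 26.5 times in WT replicates 1 to 3. Tnnt3 had 12.0, 13.9 and 16.7 times that of Tnnt1 in HdR, against 8.33, 9.63 and 6.90 in WT. These are the pairs whose ratios did not overlap between the genotypes, both higher in HdR, with mean log2 differences of 1.13 and 0.78. The longest transcripts of Tnnt3 and Tnnt1 are 1079 and 1059 nt, whereas those of Tnni2 and Tnni1 are 895 and 2153 nt.

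In the other 5 pairs the genotypes overlapped. Tnnc2 over Tnnc1 was 48.9, 41.4 and 49.5 in HdR, against 43.5, 36.5 and 32.9 in WT. Mylpf over Myl2 was 39.5, 68.0 and 70.1 in HdR, against 25.5, 43.5 and 18.4 in WT. Myh4 over Myh7, both long, was 34.1, 15.7 and 51.1 in HdR, against 44.4, 46.3 and 33.5 in WT. The ratio of Mybpc2 to Mybpc1 was below 1 in every library, at 0.358, 0.246 and 0.425 in HdR and 0.464, 0.472 and 0.392 in WT. With 3 samples against 3, no exact permutation test of such a ratio can go below p = 0.1, and no test was made.

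**Figure D3:**
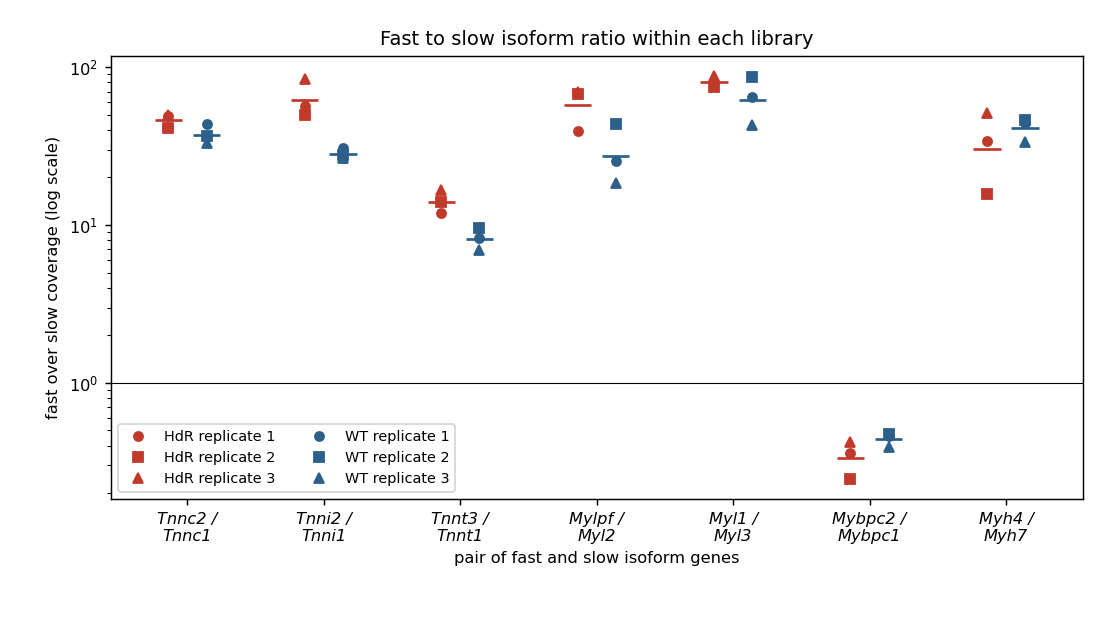
Coverage of the fast gene divided by that of its slow counterpart in each library on a log axis, with HdR in red to the left of WT in blue, replicate numbers as marker shapes and bars at the geometric mean of 3 libraries. The genotypes separate for Tnni2 over Tnni1 and Tnnt3 over Tnnt1 and overlap in the other 5 pairs, and Mybpc2 over Mybpc1 alone lies below 1.

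Levels can be set between genes only per length, here per kb of the transcript with the longest coding sequence. In HdR skin Mylpf led with 1664 ± 379 bases per Mb and kb (SD, n = 3), followed by Tnni2 at 1116 ± 116, Tnnt3 at 911 ± 91.8 and Tnnc2 at 888 ± 28.0, of which Tnnt3 and Tnnc2 lay within their spread of each other. In WT skin the same genes stood at 702 ± 89.6, 462 ± 88.1, 424 ± 83.9 and 549 ± 131. Acta1 was at 287 ± 98.1 in HdR and 317 ± 89.4 in WT. The heavy chains Myh1 and Myh4 were far lower, at 20.6 ± 6.70 and 18.0 ± 6.83 in HdR, against 45.5 ± 22.2 and 37.3 ± 18.1 in WT. Division by length does not remove the length trend, which differed between libraries. Within WT alone the coverage of Mylpf ran from 1.44 to 5.23 times that of Myh4. How much of the gap between short and long genes reflects RNA level was not tested. At the low end Ttn had 0.612 ± 0.0932 in HdR, against 1.39 ± 0.909 in WT, and Myh7 had 0.549 ± 0.0995 in HdR, against 0.932 ± 0.586 in WT.

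Deviations of libraries with the same replicate number correlated, though for number 1 (0.163) hardly more than those of HdR replicate 3 and WT replicate 1 (0.159). A model with the number as a block, a pairing that the labels do not state, changed the calls. With the block 12 members were higher and 7 lower in HdR, against 18.3% and 27.2% of all genes. The 7 lower ones were Myh4, Myh1, Mybpc2, Neb, Actn2, Mybpc1 and Ttn, and Tcap and Eno3 joined the 10 higher ones. With the length trend removed as well, 9 were higher and 5 lower, against 16.5% and 14.6% of all genes (31.1% in all). The higher ones were the 6 of the length trend alone with Tnni2, Tnnt3 and Mb, and the lower ones were Mybpc2 (-0.64, limma adjusted p = 0.0149), Myh4 (-0.54, limma adjusted p = 0.0194), Acta1 (-0.50, limma adjusted p = 0.0253), Myh1 (-0.59, limma adjusted p = 0.0270) and Ttn (-0.63, limma adjusted p = 0.0305).

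The same-numbered pairs show which libraries carry this. Myh4 in HdR was 0.503, 0.577 and 0.434 times WT in pairs 1 to 3, lower in each. Mylpf was 1.85, 2.88 and 2.42 times WT, higher in each. In all 13 members were higher in each pair, the same 13 whose genotypes do not overlap, for which this follows from the lack of overlap, against 28.2% of all genes. Another 8 members were lower in each pair, against 41.0% of all genes. Ttn was 0.467 and 0.296 times WT in pairs 1 and 3, but 1.03 times in pair 2. Cacna1s was 0.398 and 0.353 times WT in pairs 1 and 3 and 1.65 times in pair 2, and Ryr1 was 0.703 and 0.556 times and 1.83 times. Without WT replicate 2, 10 members were higher and 11 lower, against 17.9% and 22.6% of all genes (40.5% in all). Without WT replicate 1, 3 were higher, Pvalb, Tnni2 and Myoz1, and 0 lower (0 lower at an unadjusted p under 0.05), against 1.33% and 1.55% of all genes. Without HdR replicate 2, 9 were higher and 0 lower (0 lower at an unadjusted p under 0.05), against 5.18% and 7.64% of all genes.

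**Figure D4:**
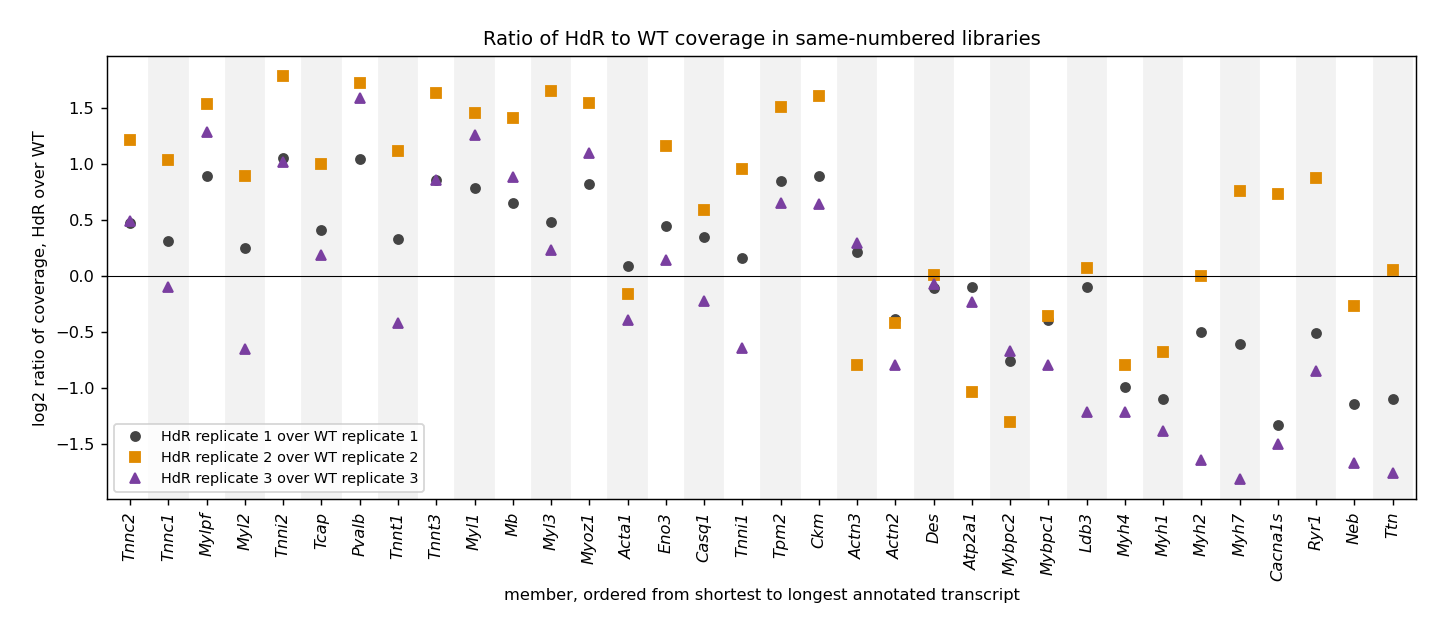
Log2 ratio of HdR to WT coverage in libraries of the same replicate number for each member, ordered by longest annotated transcript. The ratios of Mylpf, Myl1, Pvalb, Ckm and the other 9 members without overlap are above 0 in all 3 pairs, 8 members are below 0 in all 3, and pair 2 lies above the others among the longest genes.

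Other muscle genes changed in both directions. Of 104 tested genes in 7 further muscle lists, 19 rose (18.3%) and 7 fell (6.73%) in HdR skin, against 12.7% and 17.9% of all genes, and their median change was -0.01. The replicate block gave 25 that rose and 22 that fell, against 18.3% and 27.2% of all genes, and removal of the length trend gave 17 and 4, against 10.9% and 8.48%. The lists that follow are small and are read against the same shares. Among 34 other sarcomere and Z-disc genes 6 rose and 2 fell (median -0.03), and 9 and 8 did with the block. The small muscle protein Smpx rose (log2 change 1.17, limma adjusted p = 0.00615), as did the calsarcin Myoz2 (1.06, limma adjusted p = 0.00694) and the tropomodulin Tmod4 (0.93, limma adjusted p = 0.0106), which caps thin filaments, and Pdlim5, which many cell types express, fell (-1.07, limma adjusted p = 0.00444).

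Of 17 genes of the triad and of membrane excitation 4 rose and 1 fell (median -0.11), and 4 and 5 did with the block. Mrln, a micropeptide inhibitor of SERCA, had 4.44, 5.86 and 6.56 bases per Mb in HdR, against 1.45, 1.66 and 1.32 in WT (log2 change 1.41, limma adjusted p = 0.00520). Tmem38a, a potassium channel of the sarcoplasmic reticulum, rose by 0.88, Jsrp1 by 0.77 and Cacng1 by 0.66. The broadly expressed pump Atp2a2 fell by 1.03. With the length trend removed, Mrln, Tmem38a and Atp2a2 still passed, while Jsrp1 (0.39, limma adjusted p = 0.276) and Cacng1 (0.25, limma adjusted p = 0.449) did not.

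Of 16 genes of muscle energy metabolism 4 rose and 0 fell (median 0.14), and 5 and 3 did with the block. They were the cytochrome oxidase subunit genes Cox7a1 (log2 change 1.63) and Cox8b (1.54), the fatty acid binding protein gene Fabp3 (0.95) and the phosphoglycerate mutase gene Pgam2 (0.80). Cox7a1 had 62.3, 114 and 60.7 in HdR, against 26.3, 23.7 and 21.3 in WT. All 4 encode short transcripts, of 360 to 840 nt. With the length trend removed, Cox7a1 and Cox8b still passed, while Fabp3 (0.39, limma adjusted p = 0.295) and Pgam2 (0.25, limma adjusted p = 0.391) did not. Brown and white fat also express some of these genes, and the adipocyte markers rose in 8 of 11 tested genes, with a summed level of 2912, 3895 and 3078 in HdR, against 1157, 1119 and 1103 in WT. Of these, Fabp4 rose by 2.23, Adipoq by 1.74, Retn by 1.65 and Cidec by 1.27 on the log2 scale. The adipocyte markers Plin1 (-0.24), Plin4 (-0.33) and Pparg (-0.16) were not called and had negative changes. Much of the summed level was Fabp4 alone, at 1438, 2184 and 1502 in HdR, against 345, 419 and 311 in WT. The part of adipocytes in the muscle values was not tested.

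In the dystrophin complex and neuromuscular junction list 1 of 18 rose, the caveolin gene Cav3 (0.84), and 2 fell, Dmd (-1.05) and Sgcd (-0.92), the genes of dystrophin and delta-sarcoglycan. Dmd, with a longest transcript of 14910 nt, had 13.9, 11.3 and 15.4 in HdR, against 28.9, 26.7 and 31.5 in WT, without overlap. With the length trend removed, Sgcd still passed, while Dmd (-0.45, limma adjusted p = 0.0579) and Cav3 (0.40, limma adjusted p = 0.264) did not. Among 4 tested developmental isoforms the embryonic heavy chain Myh3 fell (-1.42), at 4.47, 5.05 and 4.47 in HdR and 16.0, 6.51 and 26.2 in WT, and Myl4 rose (0.79). Of 7 atrophy genes, Trim63, the ubiquitin ligase MuRF1, rose (1.13), Mstn, the growth inhibitor myostatin, rose (0.73) and Foxo3 fell (-0.85). With the length trend removed, Myl4 and Mstn still passed. Myh3 (-0.97, limma adjusted p = 0.0873), Trim63 (0.93, limma adjusted p = 0.0562) and Foxo3 (-0.36, limma adjusted p = 0.258) did not.

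Among markers of other tissues, of 7 tested smooth muscle markers 0 rose and 3 fell, Smtn (-1.72), Acta2 (-0.67) and Mylk (-0.54). Of 9 cartilage markers 0 rose and 2 fell, Chad (-1.41) and Col9a1 (-0.72), with summed levels of 197, 190 and 179 in HdR, against 252, 176 and 355 in WT. Of 3 tested heart markers the natriuretic peptide gene Nppb rose, at 21.7, 62.6 and 13.8 in HdR, against 6.65, 3.51 and 3.88 in WT, and a log2 change of 2.33, while Tnni3 and Tnnt2 had changes of -0.06 and -0.03. With the length trend removed, Smtn, Acta2, Chad and Nppb still passed, while Mylk (-0.01, limma adjusted p = 0.966) and Col9a1 (-0.45, limma adjusted p = 0.115) did not.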

How the data were processed

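Per the labels, total RNA of ear skin was made into NEBNext Ultra II libraries and sequenced on a NovaSeq 6000. The table deposited by the authors holds coverage signal, read from its values as aligned bases summed per gene: its whole numbers cluster at multiples of 300, which is what a pair of reads contributes. The genome build is GRCm38, per the submitters' processing notes. The sources used here do not name the aligner, the annotation or the strand setting. Bases are not independent read counts, so no count model was used, and the limma alternative of the planned design was taken.

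Values were scaled by trimmed mean of M values (trims of 30% and 5%) to bases per Mb. A gene was tested where 3 or more libraries reached 1 base per Mb, which left 15049 of 23518. That limit corresponds to between 11.7 and 23.7 read pairs in a library. HdR was set against WT with robust limma-trend (limma 3.58.1, R 4.3.3) on log2(value + 1), as a two-sided test. P-values were adjusted by Benjamini-Hochberg across the tested genes, and 0.05 was the threshold. The procedure was tested on simulated data with independent libraries and no length trend, outlying library or pairing. That test thus does not cover these features of the data.

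Transcript lengths came from the GRCm38 annotation and were found for 99.0% of tested genes. A natural spline with 4 degrees of freedom on log2 length was removed from each library as an alternative. The 35 promoter windows are RefSeq sequences of GRCm38.p6. Further alternatives were other scalings, filters, pseudocounts and thresholds, sample weights, each library left out, and the replicate number as a block. Deviations from the genotype means of same-numbered libraries correlated at 0.163, 0.416 and 0.366 across genes for numbers 1 to 3. All were over 0.1, so the numbers were treated as pairs. Between unlike numbers the highest value was 0.159, for HdR replicate 3 with WT replicate 1, and the lowest -0.377. Number 1 thus does not stand out as a pair. The pairing comes from the same data that the block was applied to, since the labels state none, and the calls with the block rest on it.

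The members and lists were chosen with earlier results of these data known. All members are named, with Rbck1 and, from each other list, all called genes where they are 5 or fewer and otherwise the 4 with the smallest p. A withheld item is not reported here.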

Additional observations from a re-analysis of the deposited data

How the results depend on the processing

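All values below are for HdR against WT. Across all genes 4605 were called, 1904 higher and 2701 lower; among the members 10 were higher and 0 lower; in the other muscle lists 26 were called, 19 higher and 7 lower. Without a filter on low values all genes gave 2144 calls (1017 and 1127) and the other lists 15 (11 and 4). With sample weights they gave 8176 (3409 and 4767), the members 21 with 8 lower, and the other lists 57 with 32 lower. Scaling to total bases gave 917 higher and 4305 lower, 7 and 11 in the other lists, and a member median of -0.15 in place of 0.15. A threshold of 0.1 gave 3992 lower genes across all genes, 2 lower members and 16 lower genes in the other lists. With the replicate block 4094 genes were lower, 19 members were called with 7 lower, and 47 genes of the other lists with 22 lower; with block and length trend 5 members were lower.

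The length trend left 2884 calls with 1263 lower, 6 members, all 6 higher, and 4 lower genes in the other lists. Coding length left 2483 with 1165 lower, and 4 lower in the other lists. The length trend without HdR replicate 2 left 813 (400 and 413), 2 members, both higher, and 7 in the other lists (6 and 1). The short minus very long median of 1.78 was 0.80 with the length trend, with or without the block, 0.90 with coding length and 0.60 with the length trend removed and HdR replicate 2 left out. The fast minus slow median of 0.32 was -0.0039 under quantile scaling and 0.99 among members of up to 1000 nt. With median transcript lengths no member exceeded 10000 nt, so that alternative gave no value.

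No called member turned its sign. Among members not called, the length trend, with or without the block, gave Myl2 -0.38, Tnnt1 -0.14, Tnnc1 -0.22, Ryr1 0.45, Ldb3 0.01 and Des 0.07. Coding length gave Actn3 0.39, Myh7 0.17, Myl2 -0.24, Tnni1 -0.22, Tnnc1 -0.06, Atp2a1 0.07, Ryr1 0.46, Mybpc1 0.05, Ldb3 0.01 and Des 0.13. The length trend without HdR replicate 2 gave Actn3 0.50, Myl2 -0.32, Tnni1 -0.18, Tnnt1 -0.13, Tnnc1 -0.19, Atp2a1 0.26, Ryr1 0.35, Mybpc1 0.0009, Ldb3 0.05 and Des 0.19. Sample weights gave Actn3 0.07, Myl2 -0.08 and Tnni1 -0.03, total scaling gave Myl2 -0.15, Tnni1 -0.15 and Casq1 -0.08, median-of-ratios scaling gave Des 0.01, and quantile scaling gave Ryr1 0.06. The causes were not tested.

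Leaving out 1 library gave 427 (without WT replicate 1) to 6016 calls (without WT replicate 2), 197 to 2657 higher and 230 to 3359 lower. The members had 3 to 21 calls, 3 to 10 higher and 0 to 11 lower, a median of -0.05 to 0.32, a fast minus slow median of 0.14 to 0.47 and a short minus very long median of 1.35 to 2.25. The other lists had 9 to 41 calls, 7 to 17 higher and 2 to 24 lower. Signs changed in Acta1 (-0.40 to 0.11), Actn3 (-0.39 to 0.44), Myl2 (-0.12 to 0.37), Tnni1 (-0.08 to 0.37), Atp2a1 (-0.75 to 0.11), Ryr1 (-0.57 to 0.20) and Des (-0.23 to 0.11). Of the 9 members of 5000 nt or more, 0 passed with all 6 libraries and no block or weights, and 8 passed as lower without WT replicate 2. Of all 3204 genes of that length, 1183 were lower with all 6 libraries and 1491 without WT replicate 2.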
